A study of Mus musculus with 12 samples.

Results

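The 7 genes Ptgds, A2m, Itih3, Aebp1, Fgl2, Car3 and Rasal1 were examined in RNA from mouse spinal cord, as 7 of 36121 genes in the expression table. They encode secreted proteins or enzymes, or in the case of Rasal1 an intracellular regulator of an enzyme. They were selected on their own measured values as strong falls in cKO cords, so their level in cKO against the other groups is a description and carries no test here. Each symbol had 1 row in the table, and all 7 passed the expression filter, an average of 1 TPM or more over all mice, which left 15259 genes.

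The study compared 12 C57BL6 mice of 3 months in 3 groups of 4. The cKO mice were Gfap-Cre; Tardbp-fl/fl, the cHet mice were Gfap-Cre; Tardbp-fl/+ and the control mice were Tardbp-fl/fl, whose genotype names no Cre. Tardbp encodes TDP-43, a nuclear RNA-binding protein, and Gfap is the gene of the astrocyte intermediate filament, so the Cre was meant for astrocytes. Which Gfap-Cre line was used is not given in the sources used here; Gfap promoters can also be active in neural progenitors, and the groups used hold no mice with Cre and no floxed allele. Whole cord was sequenced, so a lower value can come from fewer cells of a type or from less RNA per cell, and these cannot be told apart. Each group has 2 males and 2 females by label. All values are the authors' normalized TPM, a transcript abundance per length that can be compared between genes.

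Tardbp was at 140.5 to 151 TPM in cKO libraries, 158 to 178 TPM in cHet libraries and 166 to 181 TPM in control libraries. The deposited TPM of a library summed to 1017855 to 1048381 in cKO, 983452 to 1023987 in cHet and 954895 to 978621 in control, so the cKO and control totals did not overlap. All 18 genes of an astrocyte marker list were measured in these cords, with a sum of 7150 to 7598 TPM in cKO, 6634 to 6860 in cHet and 6422 to 6766 in control. One library went against its sex label: control replicate 1, labelled male, had 0.288 TPM of the Y-linked gene Ddx3y, where the other 5 libraries labelled male had 30.5 to 36.5 TPM and the 6 labelled female had 0.336 to 1.15 TPM. Eif2s3y, Uty and Kdm5d, also Y-linked, were likewise low in it, at 0.658, 0.600 and 0.946 TPM.

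As background, the proteins act in the fluid and matrix around cells or in the cytosol. Ptgds encodes lipocalin-type prostaglandin D synthase, which isomerises prostaglandin H2 to prostaglandin D2 and is also an abundant carrier protein of cerebrospinal fluid; in the nervous system its RNA is known from oligodendrocytes, leptomeninges and choroid plexus. A2m encodes alpha-2-macroglobulin, a secreted trap for proteases that is cleared through the receptor LRP1. Itih3 encodes a heavy chain of the inter-alpha-trypsin inhibitor family, whose chains become attached to hyaluronan in the extracellular matrix. Aebp1 encodes a secreted, collagen-binding protein with a carboxypeptidase-like domain, and Fgl2 a fibrinogen-related protein known both as a membrane prothrombinase and as a secreted immune regulator. Car3 encodes a cytosolic carbonic anhydrase best known from muscle and fat, and Rasal1 encodes a calcium-responsive GTPase-activating protein that switches Ras off.

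The genes lie on 6 chromosomes of GRCm38, and all are protein coding in the GENCODE M21 annotation. Ptgds is on chromosome 2 (25466709 to 25470046, minus strand), A2m on chromosome 6 (121635376 to 121679227, plus), Itih3 on chromosome 14 (30908572 to 30923760, minus) and Aebp1 on chromosome 11 (5861947 to 5872088, plus). Fgl2 and Rasal1 share chromosome 5 at distant positions (21372642 to 21378374 and 120648812 to 120679597, both plus), and Car3 is on chromosome 3 (14863512 to 14872523, plus). Fgl2 lies within the span of 1 other gene, which has 0 exons inside Fgl2, and the other 6 genes overlap none.

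Promoter windows of 300 bases, from 250 before to 50 after the RefSeq transcription start (RefSeq, GRCm38.p6), were found for 4 of the 7 genes, Ptgds, Itih3, Aebp1 and Fgl2. They are shown because the genes were low together in cKO cords. They lie at chr2:25469700-25469999 (minus strand), chr14:30923538-30923837 (minus strand), chr11:5861616-5861915 (plus strand) and chr5:21372423-21372722 (plus strand). Each is written 5′ to 3′ on the gene's strand, with matches on either strand to 3 motifs in capitals, namely the letters TATAAA, the E-box letters CANNTG and the AP-1 letters TGANTCA.
Ptgds: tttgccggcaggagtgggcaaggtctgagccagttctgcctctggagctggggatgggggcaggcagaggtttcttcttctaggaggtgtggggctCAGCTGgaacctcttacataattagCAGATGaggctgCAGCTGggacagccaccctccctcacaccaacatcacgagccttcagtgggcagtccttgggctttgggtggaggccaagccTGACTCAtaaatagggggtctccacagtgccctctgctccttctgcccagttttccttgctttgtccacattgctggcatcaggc
Itih3: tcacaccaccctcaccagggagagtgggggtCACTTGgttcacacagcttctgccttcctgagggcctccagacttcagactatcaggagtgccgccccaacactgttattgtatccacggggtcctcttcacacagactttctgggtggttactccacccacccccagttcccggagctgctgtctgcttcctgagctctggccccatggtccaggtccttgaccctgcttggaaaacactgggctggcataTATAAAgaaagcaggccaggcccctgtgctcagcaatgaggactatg
Aebp1: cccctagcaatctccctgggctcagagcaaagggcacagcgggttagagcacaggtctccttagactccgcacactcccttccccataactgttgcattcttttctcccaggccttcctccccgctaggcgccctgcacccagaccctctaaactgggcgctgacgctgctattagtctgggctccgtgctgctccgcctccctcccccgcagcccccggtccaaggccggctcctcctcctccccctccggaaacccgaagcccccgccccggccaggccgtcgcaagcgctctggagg
Fgl2: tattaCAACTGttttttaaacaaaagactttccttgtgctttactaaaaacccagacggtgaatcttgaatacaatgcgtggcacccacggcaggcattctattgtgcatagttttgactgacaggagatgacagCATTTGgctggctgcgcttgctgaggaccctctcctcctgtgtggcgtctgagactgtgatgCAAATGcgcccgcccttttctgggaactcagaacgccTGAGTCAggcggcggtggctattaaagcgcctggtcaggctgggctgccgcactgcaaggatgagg

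The AP-1 letters TGANTCA occurred in 2 of these 4 windows. They stood as TGACTCA 35 bases before the start of Ptgds (offset -35) and as TGAGTCA at offset -16 in Fgl2. They occurred in 6.18% of the 11140 genes of the fit with a promoter window. A gene was counted there for a match in any of its windows, while the 4 genes shown had 1 window each. E-box letters occurred in 3 of 4 (Ptgds, Itih3 and Fgl2) and in 68.2% of the genes, and TATAAA in Itih3 only, against 8.94%. That match began at offset 3, after the annotated start and not before it. GGGCGG, the letters of a GC box, occurred in Itih3, Aebp1 and Fgl2, against 67.5%. CCAAT and the nuclear receptor element AGGTCA occurred in 0 of 4, against 42.8% and 15.1%. The Aebp1 window had none of the capitalised motifs. The GGGCGG matches are left in lower case, and no match overlapped another.

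TDP-43 binds UG repeats in RNA, so the same letters were counted in the longest GENCODE transcript of each gene. GTGTGT occurred in 3 of the 7 genes, with 2 matches in A2m, 1 in Fgl2 and 2 in Rasal1, and in 65.8% of 15046 genes of the fit. No run in these 3 transcripts was longer than 6 bases, and Ptgds, Itih3, Aebp1 and Car3 had 0 matches. The transcripts without a match had 1327 (Ptgds), 3302 (Itih3), 3831 (Aebp1) and 1679 (Car3) bases. The median over the 15046 genes was 3283 bases. A longer transcript has more room for a match, and the shares are not adjusted for length. Introns, which TDP-43 is also known to bind, are not in these sequences.

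The cKO level of every one of the 7 genes lay below all 8 cHet and control libraries, a pattern shown by 3.01% of the 15259 genes. By group means, 5 of the 7 (Ptgds, A2m, Itih3, Car3 and Rasal1) were at least 2-fold lower in cKO than in control, against 0.511% of all genes. All 7 were called lower by limma at an adjusted p under 0.05 in cKO against control, where 3.25% of genes were, and in cKO against cHet, where 2.61% were. The choice of the genes fixes these counts, and nothing is read from them.

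**Figure D1:**
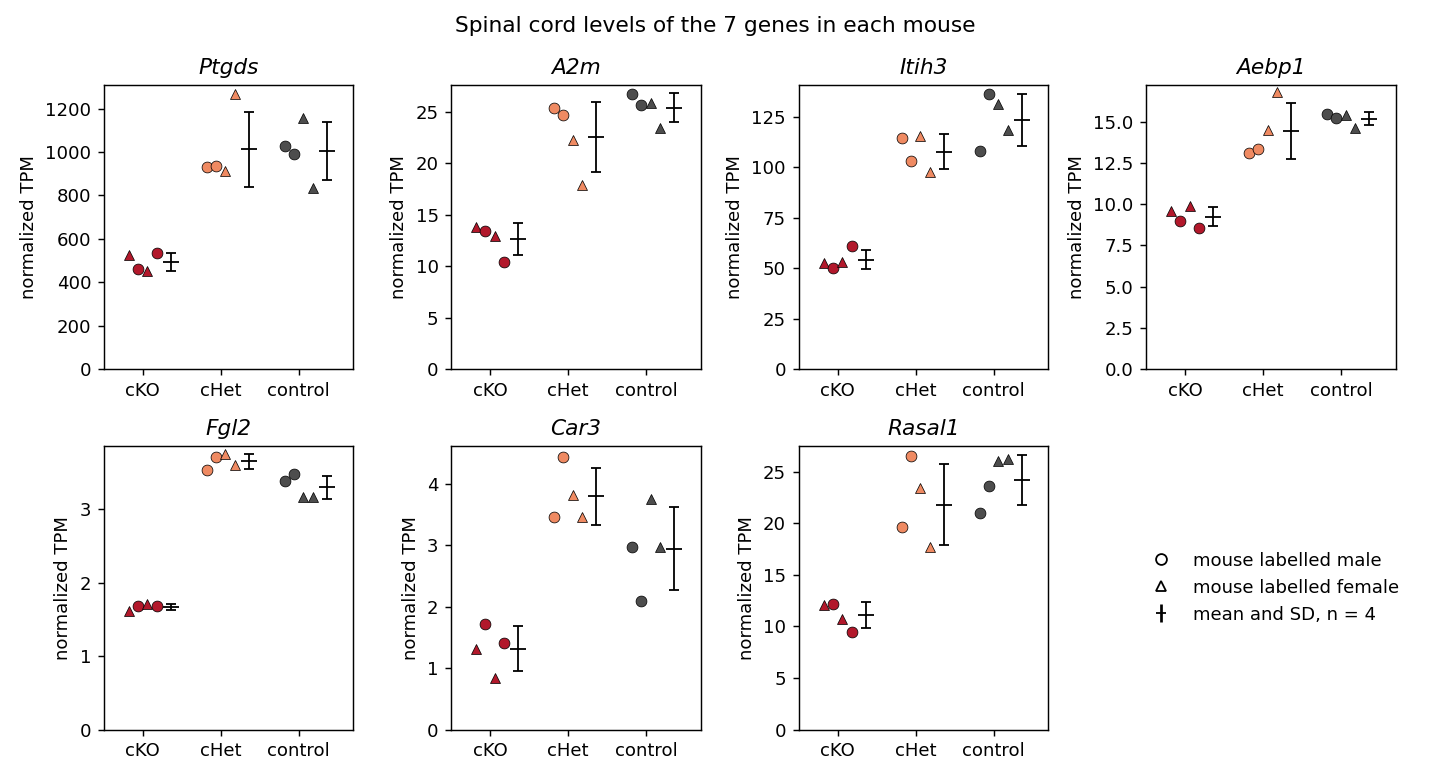
Normalized TPM (y axes, from 0) of each gene in each of the 12 mice, by genotype group, with circles for mice labelled male, triangles for mice labelled female and bars for the mean and SD of 4 mice. In each panel the 4 cKO mice lie below the 8 others, and cHet and control mice overlap for all genes but Fgl2.

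Ptgds was by far the most abundant of the 7. It had 526, 462, 454 and 533 TPM in cKO libraries, 932, 936, 913 and 1269 TPM in cHet libraries and 1030.3, 990.1, 1159 and 835 TPM in control libraries. The highest cKO library was at 63.8% of the lowest other library. The means were 494 ± 41.6 TPM in cKO, 1013 ± 171 in cHet and 1004 ± 134 in control (SD, n = 4 each), a log2 difference of -1.02 ± 0.12 (SE) for cKO minus control. On the log2(TPM + 0.5) scale used throughout, the change of genes near 1 TPM is understated. In control cords the mean level of Ptgds exceeded that of 99.5% of the genes of the fit.

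A2m and Itih3 were both low in cKO cords. A2m had 13.8, 13.4, 12.97 and 10.4 TPM in cKO libraries, 25.4, 24.7, 22.2 and 17.9 in cHet libraries and 26.7, 25.7, 25.9 and 23.5 in control libraries. The cHet replicate with 17.9 TPM lay nearest to the cKO range, and its group was the most spread. The log2 difference of A2m was -0.99 ± 0.11 for cKO minus control and -0.81 ± 0.11 for cKO minus cHet. Itih3 had 52.6, 50.1, 53.1 and 61.2 TPM in cKO libraries, 115, 103, 115 and 97.9 in cHet libraries and 108, 136, 132 and 118 in control libraries. Its cKO mean was 43.9% of the control mean, the lowest share of the 7, with a log2 difference of -1.18 ± 0.08 for cKO minus control and -0.99 ± 0.08 for cKO minus cHet. By log2 difference from control Itih3 stood in place 40 from the lowest of 15259 genes.

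Aebp1 had the smallest difference of the 7. It was at 9.58, 8.99, 9.87 and 8.55 TPM in cKO libraries, 13.1, 13.3, 14.5 and 16.8 in cHet libraries and 15.5, 15.2, 15.4 and 14.7 in control libraries. The cKO mean was 60.8% of the control mean, and the log2 difference was -0.69 ± 0.07, in place 119 from the lowest. Fgl2 was low but very even within groups. It had 1.61, 1.69, 1.71 and 1.69 TPM in cKO libraries, 3.54, 3.72, 3.76 and 3.60 in cHet libraries and 3.39, 3.48, 3.17 and 3.17 in control libraries. Its SD over 4 mice was 0.0409 TPM in cKO, and it was the only gene of the 7 whose cHet libraries all lay above all control libraries.

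Car3 was the least abundant of the 7 in cKO and control cords. It had 1.31, 1.72, 0.834 and 1.41 TPM in cKO libraries, 3.47, 4.44, 3.82 and 3.47 in cHet libraries and 2.97, 2.10, 3.75 and 2.97 in control libraries. The highest cKO library reached 81.9% of the lowest other one, the narrowest gap of the 7. The log2 difference was -0.92 ± 0.17 for cKO minus control and -1.26 ± 0.17 for cKO minus cHet, and the cKO mean was 34.7% of the cHet mean. Rasal1 had 12.1, 12.1, 10.7 and 9.44 TPM in cKO libraries, 19.6, 26.5, 23.4 and 17.7 in cHet libraries and 20.96, 23.6, 26.03 and 26.2 in control libraries. Its log2 difference was -1.09 ± 0.12 for cKO minus control and -0.93 ± 0.12 for cKO minus cHet.

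Ordered by their control level, the genes ran from Ptgds (1004 ± 134 TPM) and Itih3 (124 ± 12.9) through A2m (25.4 ± 1.38), Rasal1 (24.2 ± 2.47) and Aebp1 (15.2 ± 0.384) to Fgl2 (3.30 ± 0.160) and Car3 (2.95 ± 0.675; SD, n = 4 each). A2m and Rasal1, and Fgl2 and Car3, did not differ beyond their spread. In cKO cords the order was Ptgds (494 ± 41.6 TPM), Itih3 (54.2 ± 4.82), A2m (12.6 ± 1.53), Rasal1 (11.1 ± 1.28), Aebp1 (9.25 ± 0.589), Fgl2 (1.67 ± 0.0409) and Car3 (1.32 ± 0.367), the same order as in control. The authors' deposited tables give all 7 a lower level in cKO than in control and than in cHet; they come from the libraries that chose the genes and are no separate evidence.

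Mice with 1 floxed allele and Cre were compared with control mice without Cre, so allele loss and Cre cannot be told apart in cHet against control. The comparison did not choose the genes but shares its control mice with the one that did. None of the 7 was called, and limma called 0 of 15259 genes (0%), with 1724 genes, 11.3%, at an unadjusted p under 0.05. In the authors' deposited table for this pair the likelihood ratio test gave 0 genes and the Wald test 28 genes at a q under 0.05. Car3 was the most different of the 7, at 3.80 ± 0.460 TPM in cHet and 2.95 ± 0.675 in control (SD, n = 4; log2 difference 0.33 ± 0.17, limma adjusted p = 0.511). Fgl2 was at 3.65 ± 0.102 TPM in cHet and 3.30 ± 0.160 in control (0.13 ± 0.07, limma adjusted p = 0.554). Itih3 was at 108 ± 8.59 TPM in cHet and 124 ± 12.9 in control, the 1 gene of the 7 with an unadjusted limma p under 0.05 (log2 difference -0.19 ± 0.08, limma adjusted p = 0.409).

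The remaining differences of cHet from control were -0.18 ± 0.11 for A2m, -0.16 ± 0.12 for Rasal1, -0.08 ± 0.07 for Aebp1 and 0.01 ± 0.12 for Ptgds on the log2 scale, with limma adjusted p from 0.575 to 0.983. The direction for Ptgds turned under 3 rescalings of the libraries and without cHet replicate 4 or control replicate 4. Across the 7 genes the differences of cHet from control ran from -0.19 to 0.33 with a median of -0.08, and the median over all genes of the fit was 0.01.

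**Figure D2:**
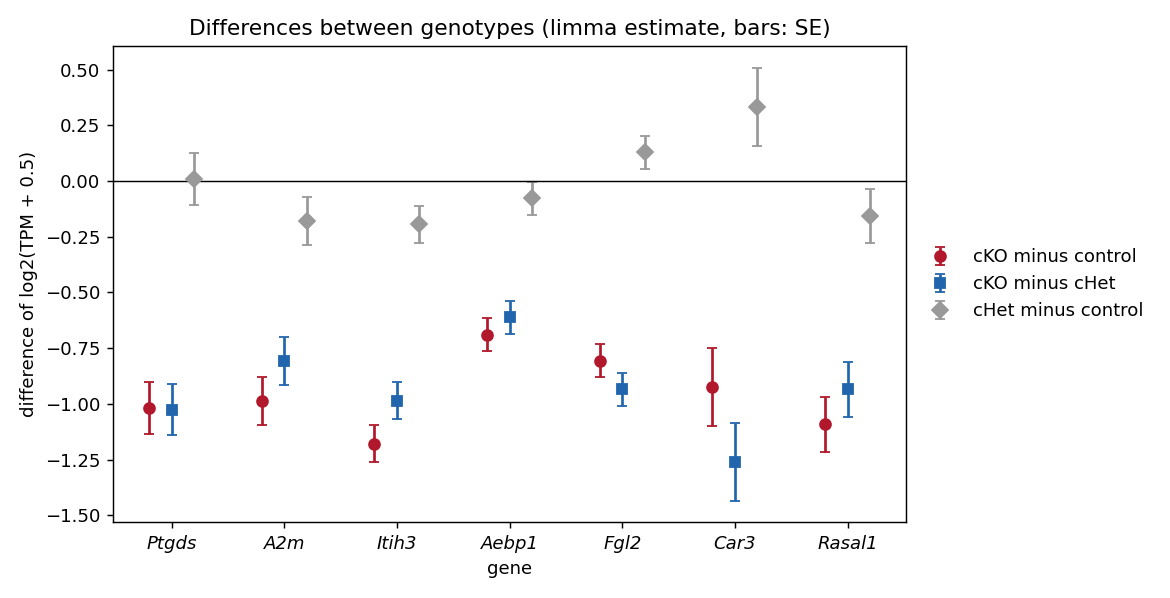
Difference of log2(TPM + 0.5) between genotype groups for each gene (y axis; limma estimate with SE bars), for cKO minus control, cKO minus cHet and cHet minus control. Both cKO differences run from -1.26 to -0.61, and those of cHet minus control lie between -0.19 and 0.33.

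Sex was not used to choose the genes. None of the 7 was called in mice labelled male against mice labelled female with genotype as a term, and the log2 differences of male minus female ran from -0.11 (Aebp1, limma adjusted p = 0.845) to 0.08 (A2m, limma adjusted p = 0.942). By these labels limma called 0 of 15259 genes, 0%, and 902 had an unadjusted p under 0.05. Without control replicate 1, whose Y-linked genes went against its label, limma called 10 genes, among them Ddx3y, Eif2s3y, Uty and Kdm5d, and still 0 of the 7, with differences from -0.14 to 0.07 and limma adjusted p of at least 0.855. These 4 Y-linked genes are named after their values were seen.

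The difference of cKO from control was also set against sex, by the interaction of sex and genotype. It was called for 0 of the 7 genes and for 1 of all genes, the predicted gene Gm16867 (0.00655%, named after its value was seen), with 592 genes at an unadjusted p under 0.05. Car3 had the largest interaction of the 7, with a cKO minus control log2 difference of -0.54 in mice labelled male and -1.31 in mice labelled female, 2 mice a group each. The interaction was 0.76 ± 0.31 on the log2 scale (limma adjusted p = 0.99956). It was 0.97 without control replicate 1, which left control replicate 2 as the only control mouse labelled male. That library had the lowest Car3 level of the cHet and control groups, 2.10 TPM. Without control replicate 1 the log2 differences of the 7 genes for cKO minus control ran from -1.24 to -0.68, given as a description.

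Relatives and partners of each gene were followed in cKO against control through 7 family lists, and the 7 genes themselves are left out of the counts that follow. Over all genes limma called 878 higher and 496 lower, a split that was 699 and 575 after median-of-ratios rescaling, 352 and 1666 after rescaling to a common total and 467 and 813 after rescaling without mitochondrially encoded genes. None of the relatives reported below as having risen or fallen changed direction under those scalings. For the relatives that were not called, the direction under those scalings was not examined.

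Among 17 other measured prostaglandin genes 2 rose and 0 fell, with a median log2 difference of 0.10 against 0.01 over all genes. Hpgd, which encodes the dehydrogenase that inactivates prostaglandins, was at 22.9 ± 2.27 TPM in cKO, 13.9 ± 2.53 in cHet and 12.1 ± 0.825 in control (SD, n = 4; cKO minus control 0.89 ± 0.11, limma adjusted p = 0.000578), so it was higher where Ptgds was lower. Ptgr2, a prostaglandin reductase gene, rose by 0.22 (limma adjusted p = 0.0313), which 9 of 24 alternatives did not call. Hpgds, the haematopoietic type of prostaglandin D synthase, was at 7.08 ± 1.62 TPM in cKO, 6.55 ± 1.70 in cHet and 5.83 ± 0.848 in control and was not called (limma adjusted p = 0.493). Of the prostaglandin D2 receptor genes, Ptgdr was at 0.690 ± 0.0877 TPM in cKO, 0.781 ± 0.184 in cHet and 0.592 ± 0.199 in control and Ptgdr2 below 0.1 TPM on average, both under the filter. Ptgds was the most abundant of the 25 genes in both cKO and control.

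Of 6 other measured genes of the alpha-2-macroglobulin family, with its receptor, 1 rose and 0 fell (median log2 difference 0.11). C3, the central complement component and a structural relative of A2m, was at 35.7 ± 2.79 TPM in cKO, 25.5 ± 3.95 in cHet and 25.6 ± 1.87 in control (SD, n = 4; cKO minus control 0.47 ± 0.10, limma adjusted p = 0.0120). The receptor gene Lrp1 was at 109 ± 3.89 TPM in cKO, 96.6 ± 10.3 in cHet and 105 ± 5.28 in control and was not called. Mug1 and Pzp, close relatives of A2m, were below the filter, at 0.138 and 0.252 TPM in cKO and 0.113 and 0.404 TPM in control on average.

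Of 12 other inter-alpha-trypsin inhibitor and hyaluronan genes 0 rose and 1 fell (median -0.02). The fall was that of Tnfaip6, whose protein TSG-6 transfers the heavy chains to hyaluronan, at 22.9 ± 2.60 TPM in cKO, 30.4 ± 3.32 in cHet and 29.5 ± 2.23 in control (SD, n = 4; cKO minus control -0.36 ± 0.09, limma adjusted p = 0.0323), which 7 of 24 alternatives did not call. Itih5, the next most abundant heavy chain gene, was at 13.7 ± 0.649 TPM in cKO, 13.9 ± 0.662 in cHet and 13.9 ± 0.154 in control. Itih2 averaged 1.03 TPM in cKO and 1.03 TPM in control, Itih4 was below the filter, and Itih1 and Ambp, the gene of the light chain bikunin, were under 0.1 TPM on average.

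Of 7 other genes of the carboxypeptidase family of Aebp1, 1 rose and 2 fell (median -0.02). Cpe, which trims neuropeptide and hormone precursors, was at 1168 ± 50.7 TPM in cKO, 999.9 ± 43.0 in cHet and 1009 ± 34.4 in control (SD, n = 4; cKO minus control 0.21 ± 0.04, limma adjusted p = 0.00682). The membrane carboxypeptidase genes Cpm and Cpd fell, by 0.50 ± 0.10 (limma adjusted p = 0.0119) and 0.22 ± 0.04 (limma adjusted p = 0.00569) on the log2 scale. The nearest relatives of Aebp1, Cpxm1 and Cpxm2, were at 3.58 ± 0.766 and 6.62 ± 1.15 TPM in cKO and 3.60 ± 0.379 and 5.54 ± 0.395 TPM in control and were not called.

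Of 9 other fibrinogen-domain genes 2 rose and 0 fell (median 0.09). Angpt1, a ligand of the endothelial receptor Tie2, was at 5.92 ± 0.479 TPM in cKO, 4.84 ± 0.315 in cHet and 4.29 ± 0.0857 in control (SD, n = 4; cKO minus control 0.42 ± 0.07, limma adjusted p = 0.00395). Angptl4, an inhibitor of lipoprotein lipase, rose by 0.71 ± 0.18 (limma adjusted p = 0.0330), which 8 of 23 alternatives did not call. Fgl1 was at 1.87 ± 0.405 TPM in cKO and 1.69 ± 0.160 TPM in control and was not called, and the fibrinogen chain genes Fga, Fgb and Fgg were each under 0.1 TPM on average.

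Of 13 other carbonic anhydrase genes 1 rose and 2 fell (median -0.01). Car13, a cytosolic form, rose by 0.59 ± 0.10 (limma adjusted p = 0.00391), with 5.36 ± 0.531 TPM in cKO, 4.36 ± 0.308 in cHet and 3.41 ± 0.473 in control (SD, n = 4). The mitochondrial form Car5b fell by 0.41 ± 0.08 (limma adjusted p = 0.0111) and the membrane form Car14 by 0.24 ± 0.07 (limma adjusted p = 0.0490), the call of Car14 lost in 13 of 24 alternatives. Car2, the form of oligodendrocytes and the most abundant of the family, was at 426 ± 35.3 TPM in cKO, 481 ± 35.2 in cHet and 443 ± 18.8 in control and was not called. Car3 ranked 12 of 16 by level in both cKO and control.

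Of 13 other genes of the Ras regulator list 2 rose and 1 fell (median 0.04). Rasa3 fell by 0.20 ± 0.05 (limma adjusted p = 0.0208) and Spred2 and Spred3 rose by 0.17 ± 0.05 and 0.15 ± 0.04 (limma adjusted p = 0.0460 and 0.0463), calls lost in 5, 18 and 17 of 24 alternatives. Rasal2, the closest in name to Rasal1, was at 21.3 ± 1.67 TPM in cKO, 22.3 ± 1.48 in cHet and 20.6 ± 1.51 in control. In these 7 lists the member chosen for its fall had the lowest log2 difference of its list in each case.

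**Figure D3:**
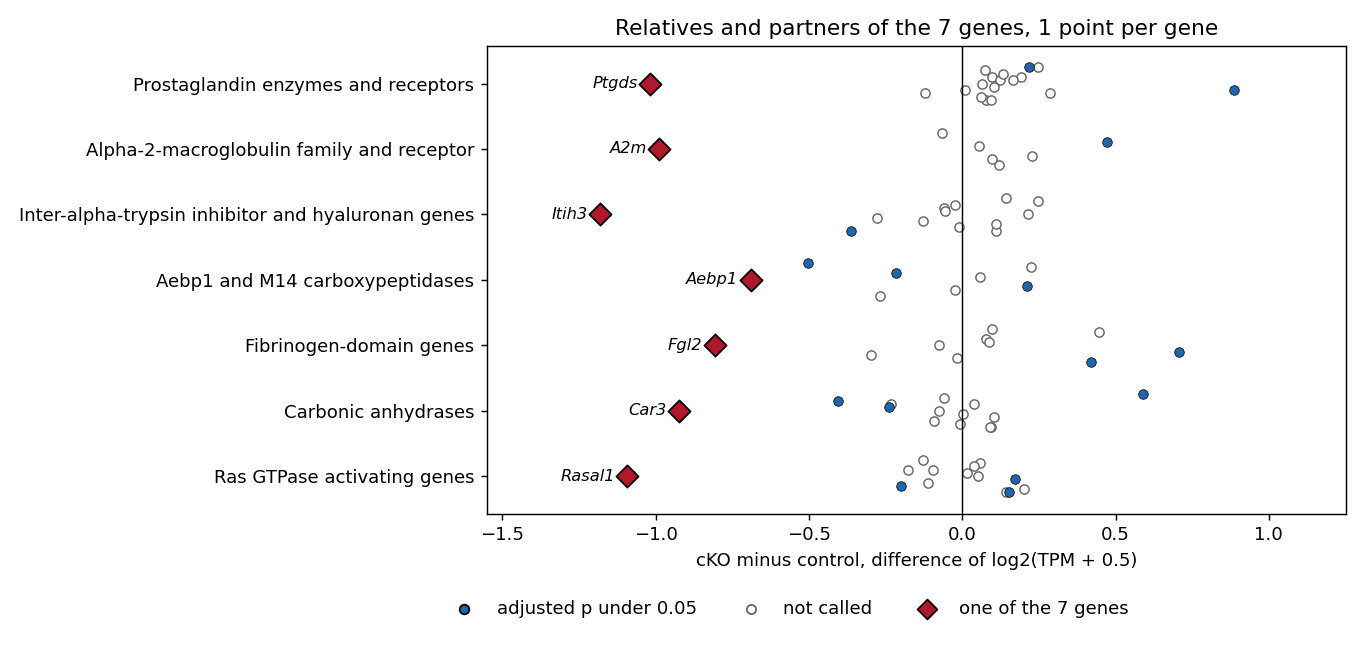
Difference of log2(TPM + 0.5), cKO minus control (x axis), for every measured gene of the 7 family lists (rows, 1 point per gene); filled blue points were called at an adjusted p under 0.05 and red diamonds are the 7 genes. The diamonds lie between -1.18 and -0.69, left of all other genes in their rows, and the other called genes lie on both sides of 0.

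The genes whose pattern over the 12 mice was most like each member were ranked by the root mean square difference of log2 values after each gene was centred on its own mean. This measure includes the fall in cKO that chose the members. Kcnj16, which encodes an inward rectifier potassium channel, was nearest to Fgl2 (0.0611) and to Itih3 (0.189), and Slc7a11, the cystine transporter gene, was nearest to Ptgds (0.151) and Car3 (0.237). Rasal1 was nearest to A2m (0.163), and Abcc12 to Rasal1 (0.163), with A2m next. Slc1a3, an astrocyte glutamate transporter gene, was nearest to Aebp1 (0.113), followed by Aspa (0.1196) and Plekhg3 (0.123). Grin2c stood among the nearest 3 for Ptgds, A2m and Fgl2, Fgl2 for Ptgds, Itih3 and Car3, Ccdc3 for Itih3, Slc7a11 also for Fgl2, and Kcnj16 also for A2m, Car3 and Rasal1.

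Among the 21 pairs of members, A2m and Rasal1 were the most alike (0.163) and Aebp1 and Car3 the least (0.381). Over the 8 cHet and control mice alone, where no gene was chosen for a difference, Pearson's r of a pair ran from -0.53 to 0.73 and was positive in 7 of 21. The highest was Ptgds with Aebp1 (r = 0.73, permutation p = 0.0410, exact; Spearman's rho = 0.76, exact permutation p = 0.0368), which did not pass Benjamini-Hochberg adjustment over the 21 pairs (adjusted p = 0.617 and 0.751). Without the 2 mice farthest from the median of Ptgds its r was 0.34. Leaving out the extreme mice also narrows the range, so this value does not show what the relation rests on. The cHet and control mice were pooled without centring on genotype, so differences between these groups also enter r and its p.

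Marker genes of cell types known to express some of the members moved in the same comparison, cKO against control. Of 20 mature oligodendrocyte genes 0 rose and 12 fell (median log2 difference -0.30), with Aspa (-0.56), Myrf (-0.37), Cnp (-0.41) and Opalin (-0.64) first by adjusted p. Their summed level was 19899 to 22675 TPM in cKO, 24066 to 28176 in cHet and 24037 to 25045 in control, with no overlap of cKO with either group. An exact permutation test of this sum over the 8 cKO and control libraries gave the smallest possible two-sided p, 0.0286. It did not pass Benjamini-Hochberg adjustment over 19 lists (adjusted p = 0.0543). The astrocyte, microglia, ependymal, choroid plexus, Schwann cell and neuron marker sums gave the same p. So did the sums of the prostaglandin, A2m and carboxypeptidase families. These other sums were all higher in cKO than in control, as were the library totals. The p therefore does not mark out the oligodendrocyte list, whose sum was lower. A sum mostly follows its most abundant genes. Cpe made up 1168 of a mean carboxypeptidase sum of 1261 TPM in cKO and 1009 of 1112 TPM in control. Fxyd1 made up 327 of a mean Schwann cell sum of 518 TPM in cKO and 270 of 496 TPM in control. The median log2 differences of these lists were -0.02 and -0.28, so their sums do not show a rise of the whole list. The part of the oligodendrocyte genes in the level of Ptgds was not tested.

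Of 18 astrocyte genes 6 rose and 5 fell (median 0.12), Slc1a2, Atp1b2 and Acsbg1 among the rises and Slc1a3 among the falls, and of 15 microglia genes 10 rose and 0 fell (median 0.35), with C1qb, C1qa and Fcrls among them. The microglia sum was 528 to 573 TPM in cKO, 415 to 449 in cHet and 406 to 422 in control. Of 11 measured meningeal fibroblast genes Dcn alone was called, higher in cKO (log2 difference 0.59 ± 0.09, limma adjusted p = 0.00165). The summed level of all 14 listed, with those under the filter, was 79.4 to 87.4 TPM in cKO, 67.5 to 99.3 in cHet and 74.7 to 84.6 in control. Choroid plexus genes gave 0 calls of 6 measured. The sum over all 10 listed, with those under the filter, was 24.1 to 26.9 TPM in cKO, 11.5 to 26.5 in cHet and 11.1 to 17.5 in control. Ttr, a choroid plexus marker, was at 13.8 ± 0.812 TPM in cKO, 5.85 ± 6.68 in cHet and 3.29 ± 3.10 in control (limma adjusted p = 0.119), and Slc4a5, a bicarbonate transporter gene, was at 1.66 ± 0.106 TPM in cKO, 1.38 ± 0.378 in cHet and 1.31 ± 0.391 in control (limma adjusted p = 0.407). No measured marker of the leptomeninges or choroid plexus, both known for Ptgds, was called lower in cKO. Only 6 of 10 choroid plexus genes passed the filter, and Ttr varied widely within cHet and control. The part of these tissues in the level of Ptgds was not tested.

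Muscle and fat genes were followed because Car3 is known from both tissues. Of 12 skeletal muscle genes 4 were measured and 0 called, and Myh2, Myh4 and Myoz1 were under 0.1 TPM on average. The sum over all 12, with those under the filter, was 27.4 to 46.5 TPM in cKO, 33.7 to 45.1 in cHet and 29.0 to 48.7 in control. Of those measured, Myh7 was at 8.76 ± 1.98 TPM in cKO and 7.90 ± 1.08 in control, and Mb at 4.33 ± 1.51 TPM in cKO and 2.94 ± 0.910 in control. Of 9 adipocyte genes other than Car3, Lpl and Pparg were measured and not called. The sum over all 9, with those under the filter, was 7.30 to 9.97 TPM in cKO, 6.48 to 8.80 in cHet and 6.32 to 7.95 in control. Cfd, Cidec and Lep were under 0.1 TPM on average. Schwann cell genes gave 1 rise (Fxyd1) and 2 falls (Pmp22 and Sox10) of 7, endothelial and pericyte genes 1 fall (Tagln) of 16, ependymal genes 1 rise (Mia) of 10 and neuron genes 3 rises (Rbfox3, Syn1 and Slc32a1) of 16. Of these calls, 9 of 24 alternatives lost that of Slc32a1, 5 that of Sox10, 4 that of Pmp22 and 1 that of Syn1. The 2 measured genes of perivascular macrophages and leukocytes, S100a8 and S100a9, were not called. The part of these markers' cell types in the levels of the 7 genes was not tested.

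**Figure D4:**
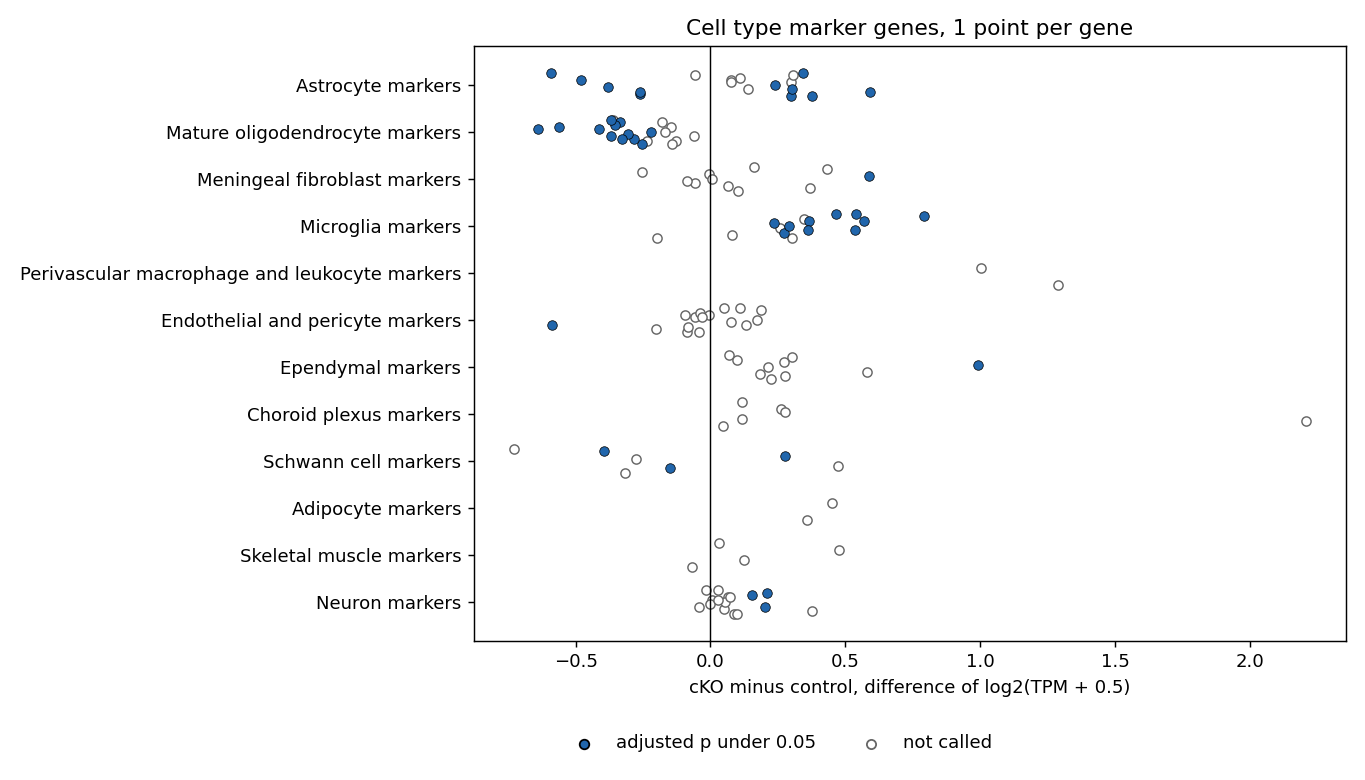
Difference of log2(TPM + 0.5), cKO minus control (x axis), for every measured gene of 12 cell type marker lists (rows, 1 point per gene); filled blue points were called at an adjusted p under 0.05. Oligodendrocyte genes lie left of 0 throughout and microglia genes mostly right of it, while astrocyte genes lie on both sides.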

How the data were processed

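RNA from 12 spinal cords was sequenced with libraries from an Illumina TruSeq kit, per the labels' protocols. The authors deposited normalized TPM, a signal that is never negative, per gene and mouse; the submitters' processing notes name kallisto 0.44.0, sleuth 0.30.0 and GRCm38, and neither the annotation release nor the strand setting is given in the sources used here. TPM keeps no read depth, so depth is unknown and no counting interval is given. Each pair of groups also has p-values and q-values of a likelihood ratio and a Wald test in the authors' deposited tables, of which the sign of the effect and the q-values are used.

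Genes averaging 1 TPM or more were kept, 0.5 was added before log2, and all 12 mice were fitted with limma 3.58.1 in R 4.3.3 (eBayes with trend, two-sided, Benjamini-Hochberg adjustment over 15259 genes, called at an adjusted p under 0.05). Sex was fitted with genotype as a term. The fit was tested on simulated data. Samples were grouped by labelled genotype, and replicates are separate mice numbered in accession order. The members and all 19 lists (7 families and 12 marker lists) were chosen with earlier results of these data known. All members are named, and of each list up to 4 called genes by adjusted p or, where none was called, the 2 with the smallest p in cKO against control, while uncalled relatives and receptors were named for their role, outside that rule. Of a symbol with several rows the highest was used. Positions are from GENCODE M21, promoters from RefSeq. Alternatives were pseudocount, filter, scaling, moderation, covariates, groups in the fit and leaving out each mouse.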

Additional observations from a re-analysis of the deposited data

Results flagged for a closer look

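Ptgds in cHet replicate 4 stood far from the other mice of its group, at 1269 TPM, where the other 3 cHet libraries lay between 913 and 936 TPM. The same mouse had the highest Aebp1 and the lowest A2m, Itih3 and Rasal1 of the cHet group, without standing apart by the same measure. Of the 21 sets of 4 libraries examined, chance flags about 1 in 20.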

How the results depend on the processing

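The direction of the 7 genes in cKO was the same under each of the 332 combinations of gene, cKO comparison and alternative that were run, which the choice of the genes fixes and from which nothing is read. Fgl2 and Car3 fall below the stricter filter of a mean of 5 TPM. The count of genes called in cKO against control, 1374, ranged from 814 to 1512 when a mouse was left out: cKO replicate 2 left out gave 814, cKO replicate 4 gave 890 and control replicate 2 gave 907. For cHet against control it was 0 to 1 when a mouse was left out and 2 with no filter. For sex it was 0 to 10, the highest without control replicate 1. For the interaction it was 0 to 6 when a mouse was left out, 0 with pseudocount 1 or without trend and 22 with no filter.

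Differences near 0 changed sign. For cHet minus control Ptgds was at -0.0034 after median-of-ratios rescaling, -0.043 after rescaling to a common total and -0.045 without mitochondrially encoded genes, and ran from -0.10 to 0.081 when a mouse was left out. Leaving out a mouse gave male minus female differences of -0.12 to 0.031 for Ptgds, -0.022 to 0.070 for Itih3 and -0.049 to 0.15 for Car3, interactions of -0.25 to 0.22 for Ptgds, -0.061 to 0.27 for Itih3 and -0.030 to 0.32 for Rasal1, and cKO minus control differences of -0.0079 to 0.20 for the muscle gene Myh7. The cause was not tested. Ranked by Pearson's r instead, 1 of the 3 nearest genes was shared for Itih3 (Ccdc3) and for Fgl2 (Kcnj16), and 0 for the other 5. Summing rows of a symbol changes no member, as each has 1 row. No paired analysis was possible because the labels give no replicate numbers shared between groups.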
